A study of Mus musculus with 15 samples.

Results

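The 8 genes described here carry the signal of type I interferon, and their transcripts were measured in mouse cortex through loss and return of microglia: the receptor genes Ifnar1 and Ifnar2, the transcription factor genes Stat2, Irf9, Irf1 and Irf7, and the feedback genes Usp18 and Isg15. The genes were chosen by name, and all 8 had a row among the 53278 gene symbols of the count table. Bulk RNA of the brain cortex was sequenced from 15 male C57BL/6J mice aged 10 to 20 weeks, 1 library per mouse and 5 mice per group. Control mice ate control food, PLX3397 mice ate food with PLX3397 for 9 days, and repopulated mice were returned to control food for 9 days after the same 9 days of PLX3397. PLX3397 inhibits CSF1R, the receptor that microglia need to survive. The labels name no transgene, and no group received PLX3397 without losing microglia, so the drug and the loss of the cells cannot be told apart.

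Type I interferons bind a receptor made of IFNAR1 and IFNAR2, and the kinases JAK1 and TYK2 at that receptor phosphorylate STAT proteins, STAT2 among them. STAT2 joins IRF9 in a complex that binds interferon-stimulated response elements in the promoters of target genes. IRF7 is itself a target and drives further interferon transcription, while IRF1 is best known as a target of interferon gamma through gamma-activated sites. ISG15 is a ubiquitin-like protein that is attached to other proteins, and USP18 removes it and also blocks signalling at IFNAR2. In the brain, microglia, astrocytes, neurons and endothelial cells can all respond to interferon.

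The promoter letters below show where the elements just described occur among these genes. In the 250 bases before the start of transcription, the response element (GAAA, any 2 bases, then GAAA, searched on both strands) and TTCNNNGAA (the gamma-activated site, which reads alike on both strands) were sought. RefSeq promoters on GRCm38.p6 were found for 7 of the 8 genes, Usp18 being the other. Isg15 held 3 overlapping matches of the response element, which share bases, from 78 to 57 bases before its start. The search matches letters and does not show how many sites are bound. Stat2 held 1 match of the response element on the minus strand from 222 to 213 bases before its start. Irf1 held 1 TTCNNNGAA from 90 to 82 bases before its start. Ifnar2 also held 1 TTCNNNGAA, 214 to 206 bases before its start. Of 32851 promoters, 2.98% held the response element and 7.02% held TTCNNNGAA. Capitals mark the matches, and Irf7, which rose most after repopulation, had none in the 250 bases searched. Its sequence is shown for 193 of those bases, up to where the GENCODE gene begins.
Isg15, chr4:156200819-156201068, minus strand: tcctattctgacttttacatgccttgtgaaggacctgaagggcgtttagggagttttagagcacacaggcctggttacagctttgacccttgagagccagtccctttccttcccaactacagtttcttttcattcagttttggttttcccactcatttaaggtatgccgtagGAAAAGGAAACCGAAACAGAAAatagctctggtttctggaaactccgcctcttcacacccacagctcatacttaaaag
Stat2, chr10:128270248-128270497, plus strand: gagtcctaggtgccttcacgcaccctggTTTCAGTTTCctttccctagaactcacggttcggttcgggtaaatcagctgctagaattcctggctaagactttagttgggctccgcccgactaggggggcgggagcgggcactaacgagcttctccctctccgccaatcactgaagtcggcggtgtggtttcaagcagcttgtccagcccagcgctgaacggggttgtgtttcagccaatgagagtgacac
Irf1, chr11:53769764-53770013, plus strand: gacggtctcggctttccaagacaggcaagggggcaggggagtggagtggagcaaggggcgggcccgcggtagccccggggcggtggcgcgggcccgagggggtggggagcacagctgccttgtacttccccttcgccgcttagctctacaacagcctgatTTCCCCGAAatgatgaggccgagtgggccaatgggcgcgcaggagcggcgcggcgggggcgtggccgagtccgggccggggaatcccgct
Irf7, chr7:141266482-141266674, minus strand: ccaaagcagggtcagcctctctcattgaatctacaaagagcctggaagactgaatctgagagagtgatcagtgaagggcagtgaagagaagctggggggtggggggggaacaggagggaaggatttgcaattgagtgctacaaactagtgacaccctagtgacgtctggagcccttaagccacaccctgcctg

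The libraries held 23413551 to 48617851 counts each, so a gene at 1 CPM (read counts scaled to library size with TMM factors and not to gene length) rested on 23.4 to 48.6 reads. Csf1r was at 79.4 to 89.3 CPM in control, 0.129 to 0.427 CPM on PLX3397 and 98.9 to 114 CPM after repopulation, in the order the labels imply. The 12 microglia markers all fell on PLX3397 and all rose after it (8.35% of all genes tested fell and 7.61% rose). Their summed level was 327 to 361 CPM in control, 14.3 to 18.2 CPM on PLX3397 and 354 to 400 CPM after repopulation. The markers of cortical excitatory neurons, which check the tissue, were at 1619 to 2089 CPM in every library. Choroid plexus markers, from tissue next to the cortex, stood at 9.04 to 25.2 CPM in control, but at 85.5, 217 and 114 CPM in depleted mice 1, 2 and 3 and at 557 CPM in repopulated mouse 4.

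Set per kilobase of exon, Ifnar1, Stat2 and Ifnar2 were the most abundant in control cortex, and Irf7 and Usp18 the least. In control cortex the order was Ifnar1 at 8.15 ± 0.508 CPM per kb (SD, n = 5), Stat2 at 5.81 ± 0.277, Ifnar2 at 3.62 ± 0.239, Irf9 at 2.23 ± 0.244, Isg15 at 1.99 ± 0.423, Irf1 at 1.55 ± 0.0934, Irf7 at 0.438 ± 0.0822 and Usp18 at 0.339 ± 0.0963 CPM per kb. The libraries of Irf9 and Isg15, of Isg15 and Irf1, and of Irf7 and Usp18 overlapped, so these neighbours were not separated beyond their spread. The order of these genes depended on the length used: per kilobase of the longest transcript, Irf1 at 2.72 to 3.15 lay wholly above Isg15 at 1.46 to 2.55 CPM per kb in control, and Usp18 at 0.534 stood above Irf7 at 0.510. After repopulation Isg15 was at 3.18 ± 0.635 and Irf9 at 2.73 ± 0.159 CPM per kb of exon, with overlapping libraries, and per longest transcript the mean of Irf9 was the higher one, its libraries at 3.47 to 4.06 against 2.497 to 4.218 for Isg15. Irf7 was then at 1.18 ± 0.254 CPM per kb of exon, its mean below the lowest library of Irf1 (1.38) and its highest library (1.48) above it.

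More of these genes passed the test after repopulation than on PLX3397. On PLX3397 against control, 1 of the 8 genes fell (Irf9) and 0 rose, where 16.5% of all 18369 genes tested changed in either direction (8.19% rose and 8.35% fell). After repopulation 6 of 8 rose over PLX3397 (Ifnar1, Stat2, Irf7, Irf9, Usp18 and Isg15; 16.6% of all genes changed, 7.61% rising and 8.98% falling) and 5 of 8 rose over control (the same but Ifnar1; 29.1% of all genes changed, 13.9% rising and 15.2% falling), with 0 lower in either. A call means an adjusted p under 0.05 in the quasi-likelihood F test of edgeR, with p-values adjusted over all genes by Benjamini-Hochberg. At an unadjusted p under 0.05, 2 genes were lower and 0 higher on PLX3397, and DESeq2 called 1 and 0. The median log2 fold change of the 8 genes was -0.04 on PLX3397 against control, 0.40 for repopulation over PLX3397 and 0.22 for repopulation over control, against medians over all genes of -0.002, 0.001 and 0.007. The repopulated mice enter both of the last comparisons and the PLX3397 mice both of the first, so these are not independent. The count over PLX3397 was 3 in place of 6 without depleted mouse 2, and that over control stayed at 4 or 5 without any single library.

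**Figure D1:**
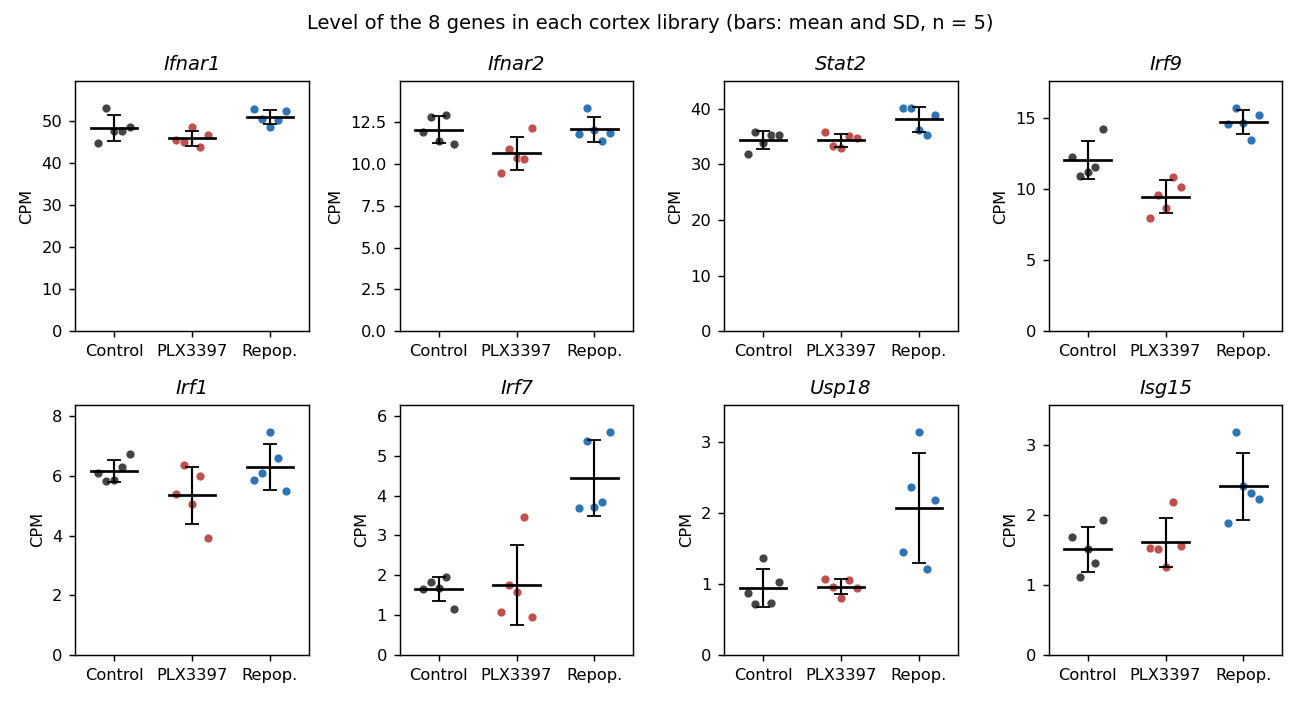
Level of each gene in CPM (y axis, from 0) in the 15 cortex libraries, by group (x axis); points are mice, the horizontal line the mean and the bar the SD of 5 mice. Irf7 stands at 3.67 CPM or more in every repopulated mouse and below that in every other mouse, while the receptor genes stay within a narrow range throughout.

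The receptor genes moved little. Ifnar1, the chain that binds TYK2, was at 44.9, 53.2, 47.6, 47.7 and 48.7 CPM in control mice 1 to 5, at 45.4, 45.1, 48.6, 44.0 and 46.6 CPM on PLX3397 and at 52.8, 50.6, 48.7, 50.4 and 52.4 CPM after repopulation. Every repopulated library lay above every PLX3397 library, although the lowest of the former (48.66 CPM) and the highest of the latter (48.60 CPM) nearly met; 5.57% of all genes were separated in this way. The log2 fold change was 0.15 (SE 0.05, adjusted p = 0.0226), and both groups overlapped the controls (-0.08 on PLX3397, adjusted p = 0.284, and 0.08 after repopulation, adjusted p = 0.223). This small call was lost without depleted mouse 2 (adjusted p = 0.0575), depleted mouse 4 (0.0692), repopulated mouse 1 (0.0618) or repopulated mouse 5 (0.0568), and with trends over gene GC content and length taken out (adjusted p = 0.0568).

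Ifnar2, the chain that binds JAK1 and that USP18 occupies, was not called in any comparison. It was at 11.2 to 12.95 CPM in control, 9.47 to 12.1 CPM on PLX3397 and 11.4 to 13.4 CPM after repopulation. Of the 5 PLX3397 libraries, 4 lay below all controls, the exception being depleted mouse 5 at 12.1 CPM. The log2 fold change on PLX3397 was -0.18 (95% interval -0.33 to -0.04, adjusted p = 0.0855), and -0.23 with an adjusted p of 0.033 without depleted mouse 5. Over PLX3397 the repopulated mice stood 0.19 higher (adjusted p = 0.0807, and 0.0244 without depleted mouse 5). Repopulated mice differed from control by 0.003 (95% interval -0.14 to 0.14). Ifnar1 and Ifnar2 lie on chromosome 16, from 91485238 to 91507441 and from 91372783 to 91405589 on GRCm38, both protein-coding on the plus strand, and Ifnar2 overlaps the predicted gene Gm21970 on the same strand.

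Of the other chains of interferon receptors, Ifngr1, the ligand-binding chain for interferon gamma, fell from 13.7 ± 1.14 to 9.61 ± 0.39 CPM on PLX3397 (log2 fold change -0.51, adjusted p = 2.3e-05) and was back at 12.8 ± 1.26 CPM after repopulation (0.42 over PLX3397, adjusted p = 0.00034). Il10rb, a chain shared by the receptors for interleukin 10 and interferon lambda, also fell (-0.34, adjusted p = 0.0339). In bulk tissue, fewer cells of a type and less RNA per cell cannot be told apart, so the fall of these genes beside the microglia markers does not say which of the 2 took place. Of the 3 tested genes of this list, 2 fell on PLX3397 (8.35% of all genes did) and 1 rose over PLX3397 (7.61% of all genes). Between repopulated and control mice 0 of the 3 differed, where 29.1% of all genes did. With 3 genes tested, that count does not show that the list returned to control.

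Irf9 and Stat2 encode partners in the complex that binds the response element, and only Irf9 passed the test on PLX3397 as well as after repopulation. Whether their changes differ was not tested. Irf9, the DNA-binding subunit, was at 12.2, 10.9, 11.2, 11.6 and 14.2 CPM in control mice 1 to 5, at 7.97, 9.59, 8.64, 10.86 and 10.2 CPM on PLX3397 and at 14.5, 15.7, 14.7, 13.4 and 15.2 CPM after repopulation. All 5 PLX3397 libraries were below all controls (5.38% of genes were), by a narrow gap from 10.86 to 10.93 CPM. All 5 repopulated libraries were above all PLX3397 libraries (5.57% of genes were). Control mouse 5, at 14.2 CPM, overlapped repopulated mouse 4 at 13.4 CPM, and the other 4 repopulated mice lay above every control. The log2 fold change was -0.35 on PLX3397 (SE 0.08, adjusted p = 0.0051), 0.64 for repopulation over PLX3397 (SE 0.08, adjusted p = 3.31e-06) and 0.29 for repopulation over control (SE 0.08, adjusted p = 0.008). Irf9 was the only one of the 8 genes called in all 3 comparisons, and it kept these calls without any single library (adjusted p up to 0.0276).

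Irf9 lies on chromosome 14 from 55603571 to 55610030, and its first 123 bases overlap Rnf31, a ubiquitin ligase gene on the same strand. Rnf31 was at 29.9 ± 1.59 CPM in control, 30.5 ± 1.6 CPM on PLX3397 and 34.1 ± 0.89 CPM after repopulation. After repopulation it rose over control (log2 fold change 0.18, adjusted p = 0.00417) and over PLX3397 (0.16, adjusted p = 0.0211), as Irf9 did. On PLX3397 its log2 fold change was 0.02 (adjusted p = 0.79), unlike that of Irf9. How reads in the shared bases were assigned is not given in the sources used here.

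Stat2, on chromosome 10 from 128270559 to 128292849, was at 31.8, 35.8, 33.8, 35.3 and 35.4 CPM in control, at 35.8, 33.4, 32.9, 35.1 and 34.7 CPM on PLX3397 and at 40.1, 40.2, 36.2, 35.4 and 38.9 CPM after repopulation. Repopulated mouse 4, with the high choroid plexus markers, was the one that overlapped the other groups. Control and PLX3397 mice were both at a mean of 34.4 CPM, with a log2 fold change of 0.00 (95% interval -0.09 to 0.09). Repopulated mice were 0.15 higher than either (SE 0.05, adjusted p = 0.0184 against control and 0.0311 against PLX3397). Against control this call was lost without control mouse 1 (adjusted p = 0.0813), repopulated mouse 1 (0.0559) or repopulated mouse 2 (0.0653). Against PLX3397 it was lost without depleted mouse 2 (0.083) or 3 (0.0775), or repopulated mouse 1 (0.089), 2 (0.0948) or 5 (0.0651), and without a filter on low counts (0.0542). With GC and length trends taken out neither call held (adjusted p = 0.0679 and 0.0988).

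Few of the receptor kinases and other STAT genes passed the test on PLX3397. Jak1, the kinase bound to IFNAR2, rose slightly on PLX3397 (0.13, adjusted p = 0.00522) and was still 0.16 over control after repopulation (adjusted p = 0.000262), while Tyk2 was not called (-0.07 and -0.02 against control). Stat6, which acts for interleukin 4, fell on PLX3397 (-0.24, adjusted p = 0.0464), and Stat5b rose over PLX3397 (0.15, adjusted p = 0.0397). Of the 9 genes of this list, 1 rose and 1 fell on PLX3397 (8.19% and 8.35% of all genes did), 2 rose over PLX3397 (7.61% of all genes) and 2 rose over control after repopulation (13.9% of all genes). The counts on PLX3397 are near the share of all genes.

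**Figure D2:**
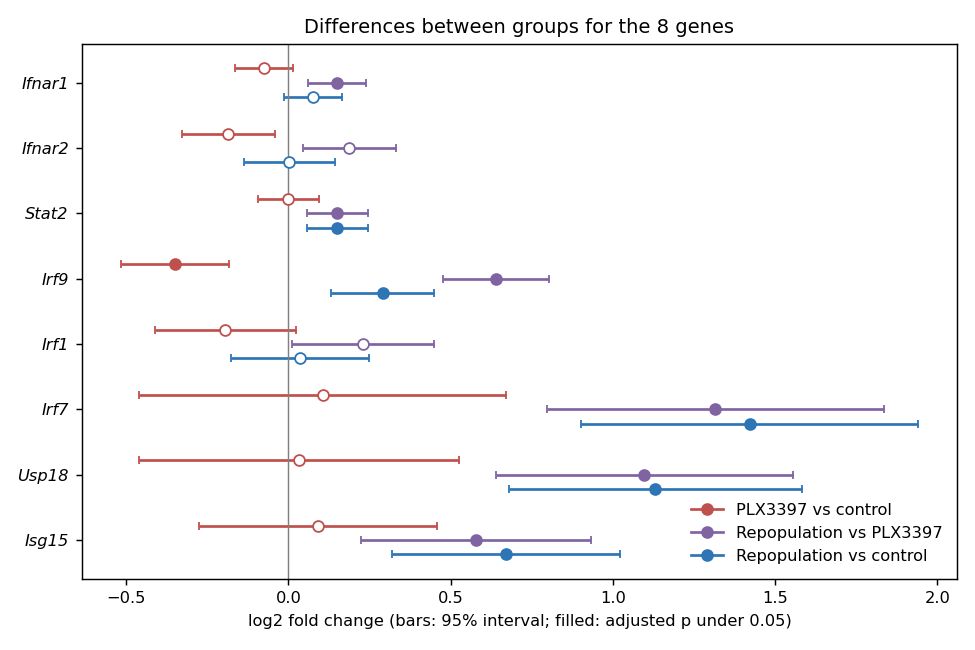
Log2 fold change (x axis) of each gene (y axis) in the 3 comparisons, with 95% intervals from the fit over all genes; filled points passed an adjusted p of 0.05. Only Irf9 has a filled point for PLX3397 against control, at -0.35, and Irf7 and Usp18 lie above 1 in both comparisons with repopulated mice.

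Irf7 rose most of the 8 genes after repopulation. This factor, which amplifies the interferon response, was at 1.66, 1.82, 1.68, 1.96 and 1.14 CPM in control, at 1.07, 1.76, 1.57, 3.45 and 0.946 CPM on PLX3397 and at 3.67, 5.36, 3.71, 3.84 and 5.605 CPM after repopulation. Every repopulated library lay above every library of the other groups, which among the 8 genes held against control for Irf7 alone. Of all genes tested, 10.5% lay wholly above control and 5.57% wholly above PLX3397. Depleted mouse 4, at 3.45 CPM, stood above all controls and just below the lowest repopulated mouse. Its microglia markers summed to 15.5 CPM and its choroid plexus markers to 17.5 CPM, neither the highest of its group, and their part in its level was not tested. The log2 fold change of repopulation was 1.42 over control (SE 0.26, adjusted p = 0.000656) and 1.32 over PLX3397 (SE 0.27, adjusted p = 0.0025, and 1.72 without depleted mouse 4). On PLX3397 against control it was 0.11 (95% interval -0.46 to 0.67, adjusted p = 0.855), and -0.30 without depleted mouse 4 (adjusted p = 0.391), so no direction can be given for depletion. These values rested on 22 to 161 reads per library.

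Irf7 lies on chromosome 7 from 141262706 to 141266481 on the minus strand, and its last 45 bases overlap the end of Phrf1 on the other strand. Phrf1 was at 62.7 ± 1.15, 63.0 ± 3.02 and 65.9 ± 0.731 CPM in the 3 groups, with a log2 fold change of 0.07 after repopulation against control (adjusted p = 0.152).

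Irf1, a factor that responds early to interferon gamma and other cytokines, was not called in any comparison. It was at 5.82 to 6.73 CPM in control, 3.92 to 6.38 CPM on PLX3397 and 5.50 to 7.49 CPM after repopulation, and the 3 ranges overlapped. Depleted mouse 5 was the lowest, with 91 reads. The log2 fold change was -0.19 on PLX3397 (95% interval -0.41 to 0.02, adjusted p = 0.254) and 0.04 after repopulation against control (95% interval -0.18 to 0.25, adjusted p = 0.845). Irf1 lies on chromosome 11 from 53770014 to 53778374 and overlaps the predicted gene Gm17334 on the other strand.

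Other interferon regulatory factors had other patterns. Irf5 and Irf8, which macrophages and microglia use, fell on PLX3397 and rose after it, as the microglia markers did. Irf8 was at 5.29 ± 0.712 CPM in control, 0.899 ± 0.282 CPM on PLX3397 (17.0% of control) and 7.13 ± 0.66 CPM after repopulation, with log2 fold changes of -2.555 (adjusted p = 1.78e-12) on PLX3397 and 0.43 (adjusted p = 0.00843) for repopulation over control. Irf5 fell to 18.1% of control (-2.485, adjusted p = 2.17e-09) and rose again (2.80 over PLX3397, adjusted p = 1.19e-10). Irf7 in contrast stood at a mean of 106% of control on PLX3397 and 269% after repopulation. The PLX3397 mean includes depleted mouse 4 at 3.45 CPM. Without that mouse the log2 fold change of Irf7 on PLX3397 was -0.30 (adjusted p = 0.391), so no direction is given. Irf2, which competes with IRF1, and Irf3, which starts interferon transcription, were lower than control on PLX3397 (-0.25 and -0.20, adjusted p = 0.00517 and 0.0359) and still lower after repopulation (-0.25 and -0.20, adjusted p = 0.00226 and 0.0224). Of the 9 other genes of the family and its binding proteins, 6 fell and 0 rose on PLX3397 (8.35% and 8.19% of all genes did). Of these 9, 4 rose over PLX3397 (7.61% of all genes). Against control, 1 rose and 3 fell after repopulation (13.9% and 15.2% of all genes), and the 1 that rose is near that share. Irf2bpl and Irf2bp2, of the family named for binding IRF2, were among those that fell on PLX3397 and rose after it (-0.22 and 0.16 for Irf2bpl, adjusted p = 0.00107 and 0.0132).

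**Figure D3:**
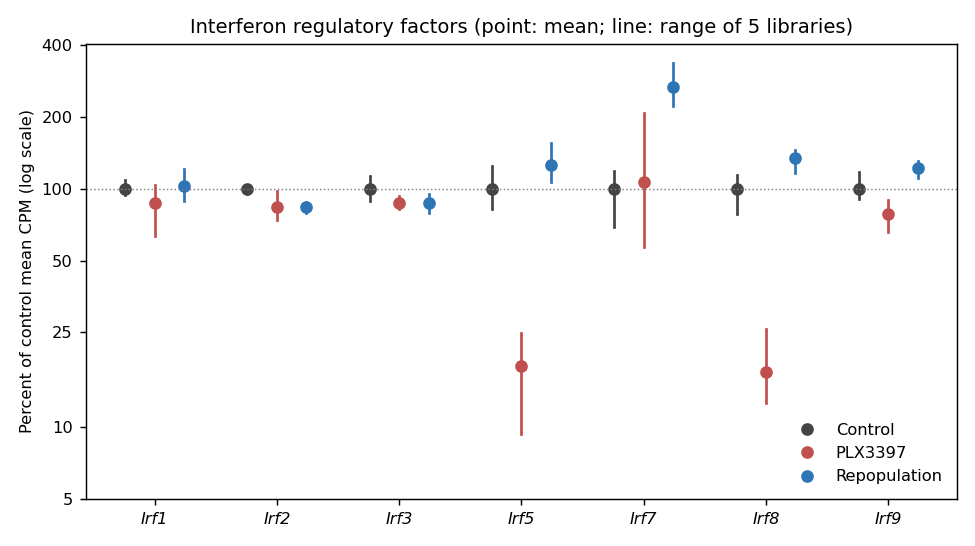
Mean CPM of 7 interferon regulatory factor genes as percent of the control mean (y axis, log scale), by group; points are means and lines span the lowest to the highest of 5 libraries. Irf5 and Irf8 drop to 18.1% and 17.0% on PLX3397, whereas the mean of Irf7 is 106% there and 269% after repopulation. The PLX3397 mean of Irf7 includes depleted mouse 4 at 3.45 CPM, the top of its line.

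Both feedback genes rose after repopulation. Usp18, the protease that removes ISG15 and dampens the receptor, was at 0.881, 0.716, 1.37, 0.735 and 1.02 CPM in control, at 1.07, 0.952, 0.801, 1.06 and 0.946 CPM on PLX3397 and at 1.45, 2.37, 3.15, 1.21 and 2.19 CPM after repopulation. All repopulated libraries lay above all PLX3397 libraries (5.57% of all genes tested did). Of the 5, 4 lay above all controls, the exception being repopulated mouse 4. Usp18 stood 1.13 higher on the log2 scale over control (SE 0.23, adjusted p = 0.000542) and 1.10 over PLX3397 (SE 0.23, adjusted p = 0.00161). On PLX3397 against control it was 0.03 (95% interval -0.46 to 0.53, adjusted p = 0.953). The gene had 18 to 85 reads per library, and a change under PLX3397 within that interval was not detectable here. The parts of read depth and of spread between mice in the interval were not tested. Usp18 lies on chromosome 6 from 121245906 to 121270917 and overlaps the predicted gene Gm44148 on the other strand.

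The promoter of Isg15 holds the 3 overlapping matches of the response element shown above. Isg15 was at 1.68, 1.11, 1.51, 1.31 and 1.93 CPM in control, at 1.53, 1.52, 1.25, 2.19 and 1.55 CPM on PLX3397 and at 1.89, 3.19, 2.41, 2.31 and 2.23 CPM after repopulation. Repopulated mouse 1 overlapped both other groups, and the other 4 repopulated mice lay above every library of those groups. Depleted mouse 4, high for Irf7, was also the highest PLX3397 library for Isg15. Isg15 stood 0.67 higher on the log2 scale over control (SE 0.18, adjusted p = 0.00582) and 0.58 over PLX3397 (SE 0.18, adjusted p = 0.0278), and on PLX3397 against control it was 0.09 (95% interval -0.28 to 0.46, adjusted p = 0.8). The call over control held without any single library (adjusted p up to 0.0311). The call over PLX3397 was lost without depleted mouse 1 (adjusted p = 0.0567), 2 (0.0615) or 3 (0.0773), or repopulated mouse 2 (0.106) or 3 (0.0516). Isg15 lies on chromosome 4 from 156199424 to 156200818.

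Some other genes of ISG15 conjugation and of feedback on the pathway changed. Uba7, the enzyme that activates ISG15, fell from 4.28 ± 0.647 to 2.29 ± 0.334 CPM on PLX3397 (-0.91, adjusted p = 1.58e-05) and reached 5.65 ± 0.624 CPM after repopulation (0.40 over control, adjusted p = 0.0122). Herc6, the ligase for ISG15 in mice, was at 16.8 ± 1.92, 18.4 ± 1.79 and 21.8 ± 1.29 CPM in control, PLX3397 and repopulated mice (0.39 over control after repopulation, adjusted p = 0.000349). Trim25, a ligase that is itself an interferon target, rose to 9.05 ± 1.16 from 6.79 ± 0.611 CPM in control (0.41, adjusted p = 0.002). The conjugating enzyme gene Ube2l6 was not called (-0.18, adjusted p = 0.375), nor was Socs1, an inhibitor of JAK kinases (-0.02, adjusted p = 0.954). Ptpn6, a phosphatase of blood and microglial cells, fell to 13.1% of control on PLX3397 and stood 0.51 over control after repopulation (adjusted p = 0.00971). Socs3, an inhibitor of cytokine receptors, fell on PLX3397 (-0.43, adjusted p = 0.0118), and Pias1, an inhibitor of STAT signalling, rose (0.12, adjusted p = 0.035). Of the 12 genes of this list, 1 rose and 3 fell on PLX3397, 4 rose over PLX3397 and 5 rose over control after repopulation, with 0 lower in the last 2 comparisons. Of all genes, 8.19% rose and 8.35% fell on PLX3397, 7.61% rose over PLX3397 and 13.9% rose over control.

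Most listed targets of the pathway rose after repopulation. Of 37 interferon-stimulated genes listed, 36 were tested (Oas3 had too few reads). On PLX3397 against control, 0 of 36 rose and 3 fell, namely Parp14, Trim30a and Epsti1 (8.19% and 8.35% of all genes did). The 3 that fell are near the share of all genes. At an unadjusted p under 0.05, 0 were higher and 6 lower, and DESeq2 called 0 higher. After repopulation 31 of 36 (86.1%) rose over PLX3397 and 31 of 36 rose over control, with 0 lower in either, against 7.61% and 13.9% of all genes. The median log2 fold change of the list was -0.16 on PLX3397, 0.89 for repopulation over PLX3397 and 0.67 for repopulation over control, where all genes had medians of -0.002, 0.001 and 0.007. In 22 of the 36 every repopulated library lay above every control, against 10.5% of all genes. The list was drawn up with a rise of interferon genes in these libraries already known, so it is not independent evidence of its direction.

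Ifit3, which restrains viral RNA, rose from 5.24 ± 0.651 CPM in control and 5.18 ± 0.585 CPM on PLX3397 to 11.5 ± 1.86 CPM (1.13 over control, SE 0.11, adjusted p = 4.86e-07). Lgals3bp, a secreted glycoprotein, rose from 10.95 ± 0.818 to 31.8 ± 7.71 CPM (1.53, adjusted p = 8.1e-06), and Eif2ak2, the kinase PKR that senses double-stranded RNA, from 5.92 ± 0.776 to 11.65 ± 2.14 CPM (0.98, adjusted p = 3.13e-06). For Ifit3, Lgals3bp and Eif2ak2 all 5 repopulated libraries lay above the other 10. Of all genes tested, 10.5% lay wholly above control and 5.57% wholly above PLX3397. Parp14 and Trim30a fell on PLX3397 (-0.74 and -0.78, adjusted p = 0.000172 and 0.000609) and then rose above control (0.64 and 0.65, adjusted p = 0.000158 and 0.000622), the pattern that Irf9 showed among the 8 genes. Of 25 tested targets with a promoter entry, 7 (28.0%) held the response element in the 250 bases before the start, against 3.13% of 12630 tested genes. Ifit1, Ifit3, Ifit3b, Bst2 and Rsad2 were among the 7. The genes were listed as known interferon targets, so this share describes the list and is not a result of these libraries.

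**Figure D4:**
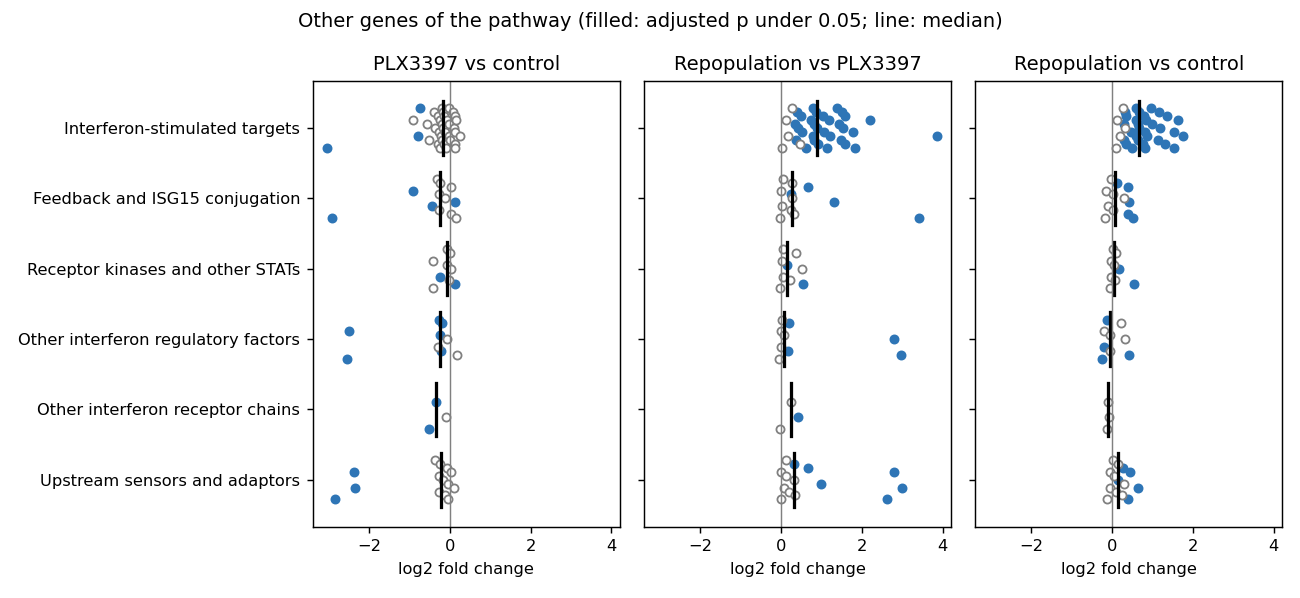
Log2 fold change (x axis) of the other genes of the pathway, by list (y axis), in the 3 comparisons; each point is a gene, filled where the adjusted p was under 0.05, with a line at the list's median. The targets lie near -0.16 on PLX3397 against control and around 0.89 and 0.67 in the comparisons with repopulated mice.

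Interferons themselves were hardly seen. Of 21 rows for interferon genes, Ifnb1 and Ifng among them, 14 had 0 reads in all 15 libraries, and the other 7 had at most 5 reads in total. None was tested. At this depth bulk cortex can miss a transcript made by few cells, so the counts limit only the level in the whole tissue.

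Among genes that act before interferon is made, those that fell on PLX3397 were 3 that microglia are known to express. Tlr7, the endosomal sensor of single-stranded RNA, fell to 13.8% of control on PLX3397 (-2.85, adjusted p = 7.43e-12), the chaperone gene Unc93b1 to 19.5% (-2.36, adjusted p = 2.04e-16) and Tmem173, which encodes STING, to 18.9% (-2.38, adjusted p = 3.02e-09). After repopulation Unc93b1 stood 0.45 over control (adjusted p = 8.05e-05), Tlr9, a sensor of DNA, 0.64 (adjusted p = 0.017) and Tlr3, a sensor of double-stranded RNA, 0.26 (adjusted p = 0.00914). Of 14 genes of this list, 3 fell and 0 rose on PLX3397, 6 rose over PLX3397 and 5 rose over control after repopulation. Of all genes, 8.35% fell and 8.19% rose on PLX3397, 7.61% rose over PLX3397 and 13.9% rose over control.

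Markers of cell types were measured beside these results. The 37 targets summed to 152 to 171 CPM in control, 136 to 167 CPM on PLX3397 and 212, 253, 244, 227 and 280 CPM in repopulated mice 1 to 5. Of the 12 microglia markers, 3 were higher (Csf1r and Siglech among them) and 1 lower (Fcrls) in repopulated than in control mice. Repopulated mouse 5, highest for the targets and for Irf7, was also highest for the microglia markers at 400 CPM. Among repopulated mice, Ifnar1 was highest in mouse 1, Ifnar2, Stat2, Irf9 and Isg15 in mouse 2, and Irf1 and Usp18 in mouse 3. Repopulated mouse 4, with choroid plexus markers at 557 CPM, was above only repopulated mouse 1 for the targets and was lowest for Usp18. Without it 28 of the targets rose over control and 30 over PLX3397. Border macrophage markers summed to 30.4 to 39.9 CPM in control, 4.53 to 5.70 CPM on PLX3397 and 32.4 to 38.5 CPM after repopulation (0 of 6 tested called between repopulated and control mice). The 12 markers of blood leukocytes and plasmacytoid dendritic cells, the latter known for making interferon, summed to 1.02 to 1.78 CPM in control, 0.817 to 1.18 CPM on PLX3397 and 1.07 to 1.46 CPM after repopulation, and only 1 had enough reads to be tested. Endothelial markers summed to 235 to 252 CPM in control, 205 to 229 CPM on PLX3397 and 243 to 254 CPM after repopulation. Of the 9, 0 were higher and 4 lower on PLX3397, 5 higher and 1 lower for repopulation over PLX3397, and 2 higher and 3 lower for repopulation over control. Oligodendrocyte markers moved the other way, from 4948 to 5224 CPM in control to 5256 to 6401 CPM on PLX3397 and 4484 to 5347 CPM after repopulation. Of these 7, 5 were higher on PLX3397, 7 lower for repopulation over PLX3397 and 2 lower for repopulation over control. Of 7 astrocyte markers, 2 were higher on PLX3397, 3 were lower for repopulation over PLX3397, and 1 was higher and 1 lower for repopulation over control. Of all genes, 8.19% rose and 8.35% fell on PLX3397, and 7.61% rose and 8.98% fell for repopulation over PLX3397. For repopulation over control 13.9% rose and 15.2% fell, 29.1% in either direction. The microglia, oligodendrocyte and astrocyte counts between repopulated and control mice are near that share. With 6 genes tested, the count of 0 does not show that border macrophages returned to control. The part of each cell type in the interferon genes was not tested.

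**Figure D5:**
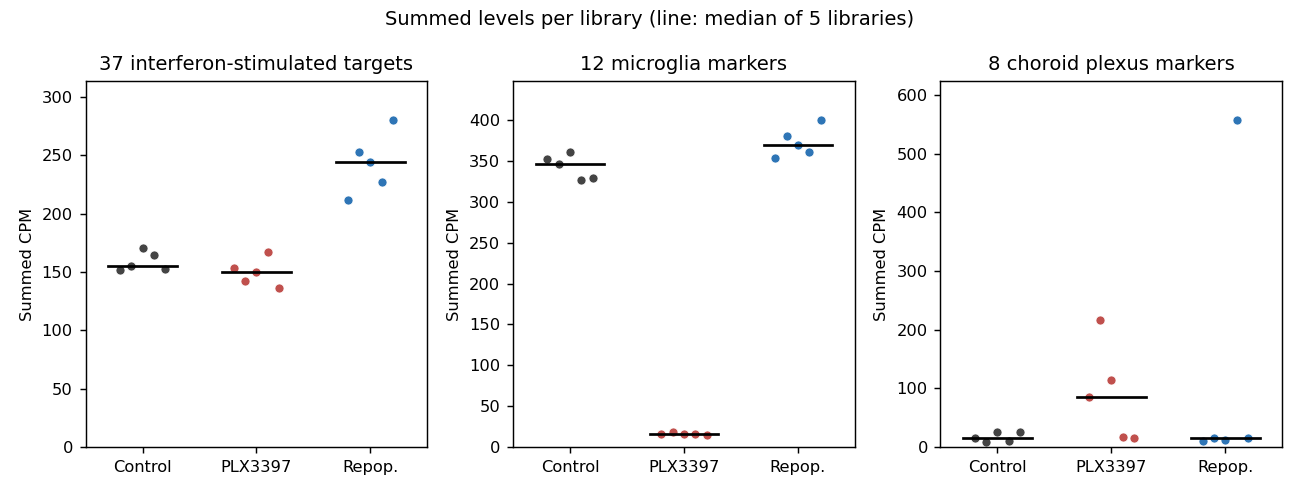
Summed CPM (y axis, from 0) of the 37 interferon-stimulated targets, the 12 microglia markers and the 8 choroid plexus markers in each library, by group (x axis), with a line at the median. The targets reach 212 CPM or more in every repopulated mouse and at most 171 CPM elsewhere, the microglia markers drop to 14.3 to 18.2 CPM on PLX3397, and 1 repopulated mouse stands at 557 CPM for choroid plexus.

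The genes whose pattern over the 15 libraries was most like that of each gene were ranked by Pearson's r of log2 CPM, given as a description, since the libraries fall into 3 groups. For Irf7 they included Ifi44 (r = 0.91) and Ifit1 (0.90), and 11 of its 20 most alike genes were on the pathway lists. For Usp18 they were Gbp3 (0.87), Ifit3 (0.87) and Mtcp1 (0.86), with 9 of 20 on the lists, and for Isg15 they included Fndc3b (0.84) and Gbp3 (0.83), with 5 of 20. For Irf9 they were Parp14 (0.93), Akna (0.93) and Capn3 (0.92), with 2 of 20. Stat2 was most like Zfp869 (0.85), Phf12 (0.83) and Mtcp1 (0.82), with 2 of 20. Ifnar1 (Lsp1 at 0.89, Lgr6 at 0.89 and Hip1r at 0.88) and Ifnar2 (Rhno1 at 0.90, Tspan4 at 0.84 and Eno3 at 0.84) had 0 of 20, and Irf1 (Fgd1 at 0.85, Rinl at 0.85 and Clec14a at 0.80) had 1. With the group means taken out, the most alike were Setd5 for Ifnar1 (0.88), Poln for Stat2 (0.86), Rpe for Irf7 (0.86), Angptl4 for Irf9 (0.85), Gpank1 for Usp18 (0.92) and Slc35e3 for Isg15 (0.90). None of the 3 genes most like any of the 8 was then on a pathway list. Among the 8 genes, r between Irf7 and Usp18 dropped from 0.70 to 0.05, while r between Irf9 and Isg15 went from 0.72 to 0.70. Of other pairs, Usp18 and Isg15 went from 0.80 to 0.50, and Ifnar1 and Isg15 from 0.14 to -0.65. These pairs were picked after their values were seen. The genes named as most alike are the top of a search over the genes tested in 15 libraries. A high r in such a search does not by itself show a link.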

How the data were processed

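Total RNA of brain cortex from 15 mice was measured as read counts per gene. The authors deposited unnormalized whole-number counts, with 53278 gene symbols as rows. Tools named in the submitters' processing notes are STAR, DESeq, DESeq2, FastQC and MultiQC, and the genome build named is mm10. What each tool did, how reads were assigned to genes, and whether strand was used: not given in the sources used here. Columns were matched to samples by group and mouse number, and all 15 were used. No 2 libraries within a group were alike within sampling noise (chi-square of 2.53 to 9.95 per degree of freedom).

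The test was edgeR 4.0.16, run in R 4.3.3 (filterByExpr, 18369 genes, TMM factors, robust quasi-likelihood F test over all 15 libraries, Benjamini-Hochberg threshold 0.05). Standard errors were taken from the F statistic, and 95% intervals are 1.96 SE to each side. Counts were scaled to CPM, with a prior count of 2 for log2 CPM. Alternatives were RLE factors, library totals, DESeq2 1.42.0, other filters, pairwise fits, a replicate block, GC and length offsets, and leaving out each library. The edgeR script was tested on simulated data. Genes, pathway lists and tests were chosen with earlier results of these data known. The alternatives for the target list were added after its values were seen. Named genes are the 8 members, up to 3 called genes with the smallest adjusted p per list and comparison, the 3 genes most alike in pattern, and others given as examples after their values were seen. Coordinates and exon lengths came from GENCODE release M21 on GRCm38, and promoters from RefSeq. Results for some genes that the rule or the lists include are not reported here, though list counts and medians keep them.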

Additional observations from a re-analysis of the deposited data

How the results depend on the processing

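Leaving out 1 library at a time gave 1 to 2 genes lower on PLX3397 against control (2 without depleted mouse 5), 3 to 7 higher for repopulation over PLX3397 and 4 to 5 for repopulation over control. Irf7, Irf9 and Usp18 kept their calls after repopulation, and Irf9 its call on PLX3397, under every alternative run. With GC and length offsets, 4 genes rose over PLX3397 and 4 over control. Over all genes these offsets cut the higher calls on PLX3397 from 1505 to 719 (35.8% of calls, against 49.5%) and after repopulation over control from 2548 to 1554 (36.5% against 47.7%), and to 625 and 1450 with the replicate block added. With library totals in place of TMM factors, 59.2% of the calls of repopulation over PLX3397 were higher, against 45.9%. Of the target list, 24 to 31 genes rose over control and 25 to 33 over PLX3397 under the other settings, the lowest with at least 1 CPM required in 5 libraries, where fewer genes were tested.

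Mouse numbers did not pair the samples: same-numbered libraries of different groups had residual correlations of -0.131 to 0.103. The replicate block left 1, 6 and 5 of the 8 genes called in the 3 comparisons and changed no call among them. It moved the counts over all genes to 1376 higher and 1456 lower on PLX3397.

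Per length of the longest transcript, control levels were 12.4 CPM per kb for Ifnar1, 3.96 for Ifnar2, 7.83 for Stat2, 2.88 for Irf1, 3.11 for Irf9 and 0.534 for Usp18, and Isg15 stayed at 1.99, so Irf1 and Isg15 changed places. The motif count of 2 genes was the same with the last base of the response element left out. Usp18, Isg15 and Irf7 rest on few reads, and differences on PLX3397 within their intervals could not be seen. How much of these intervals comes from read depth or from spread between mice was not tested.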
